A study of Mus musculus with 6 samples.

Results

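Angiotensin and endothelin are the main peptide systems that constrict vessels and load the heart, and 8 of their genes were followed here in hearts of NBCe1-B/C KO and WT mice. The angiotensin genes were Agt, Ace, Atp6ap2 and Agtr1a, and the endothelin genes were Edn1, Ece1, Ednra and Ednrb. The rule that chose them names symbols and uses no measured value, but it was written with earlier results of these data known, and all 8 were among the 16018 genes of the deposited table. RNA sequencing was run on total RNA of hearts from 3 female NBCe1-B/C KO and 3 female WT mice aged 4-5 weeks. There was no treatment in either group. The knockout animals lack the B and C variants of the sodium bicarbonate cotransporter NBCe1 in every tissue from conception and keep the kidney variant NBCe1-A, so a heart may differ through its own loss of the transporter or through other organs, and these data cannot tell the routes apart. A library of heart tissue mixes cell types, so fewer cells of a type and less RNA per cell cannot be told apart either.

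Agt encodes angiotensinogen, the precursor that renin cuts to angiotensin I. Angiotensin-converting enzyme (Ace), which sits on the endothelial surface, cuts angiotensin I to angiotensin II, and the type 1 receptor (Agtr1a) passes the signal through Gq proteins to phospholipase C and calcium release. Atp6ap2, the (pro)renin receptor, binds renin and its precursor and also serves the vacuolar proton pump. In the endothelin system, Edn1 encodes the precursor of endothelin-1, endothelin-converting enzyme 1 (Ece1) releases the active peptide, Ednra on muscle cells mediates constriction and growth, and Ednrb clears endothelin and signals from the endothelium. Both systems are known for raising vascular tone and, in loaded hearts, for driving hypertrophy and fibrosis.

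The recovered reads on genes numbered 41364857 to 49100802 per library. Slc4a4, which encodes NBCe1, had normalized counts of 264, 945 and 269 in NBCe1-B/C KO replicates 1, 2 and 3 and of 675, 822 and 789 in the WT replicates. Replicates 1 and 3 of the knockout lay below every WT library, and the library labelled NBCe1-B/C KO replicate 2 lay above all of them, against its label. The count sums all transcripts of the gene, NBCe1-A included, so it does not measure the B and C variants alone. Whether the label is right was not tested. The log2 fold change of Slc4a4 was -0.90 over all libraries (limma, adjusted p = 0.239) and -1.51 without that library (adjusted p = 0.0121). This library was kept under its label, and values without it are given for the 8 genes and for the named pathway genes. The 6 cardiomyocyte markers were abundant in every library, with a summed normalized count of at least 1624576. The summed adipose markers (Adipoq, Plin1, Ucp1 and Cidec) were 82.4 in NBCe1-B/C KO replicate 1 and 1245 to 5028 in the other 5 libraries.

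All 8 genes had a higher mean in NBCe1-B/C KO than in WT hearts, with log2 fold changes from 0.04 for Atp6ap2 to 0.49 for Agt and a median of 0.31. The converting enzymes Ace and Ece1, the receptors Agtr1a and Ednra and the precursor Agt had every knockout library above every WT library, whereas the groups overlapped for Atp6ap2, Edn1 and Ednrb. None of the 8 genes passed an adjusted p of 0.05 in limma, a test that also called 0 (0%) of all 16016 genes tested. At an unadjusted p under 0.05, 6 of the 8 genes were higher in the knockout, against 13% of all genes. The groups were apart with the knockout higher in 5 of the 8, against 15.6% of all genes. A log2 fold change above 0 was found for 49.2% of all genes, whose median was -0.004. DESeq2 on the recovered reads, an alternative, passed Ece1, Ace and Ednra as higher, 3 of 8 against 8.22% of all genes with an adjusted p, and Ece1 alone, 1 of 8 against 5.36%, when its independent filtering and outlier removal were switched off. edgeR's quasi-likelihood test passed none of the 8 (0% of all genes) and gave 5 of the 8 an unadjusted p under 0.05 with the knockout higher, against 13.3%. NBCe1-B/C KO replicate 1 held the highest value of all 6 libraries for 6 of the 8 genes. With 3 animals per group, the exact two-sided permutation test cannot go below 0.1, the value it gave for the 5 genes whose groups were apart.

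**Figure D1:**
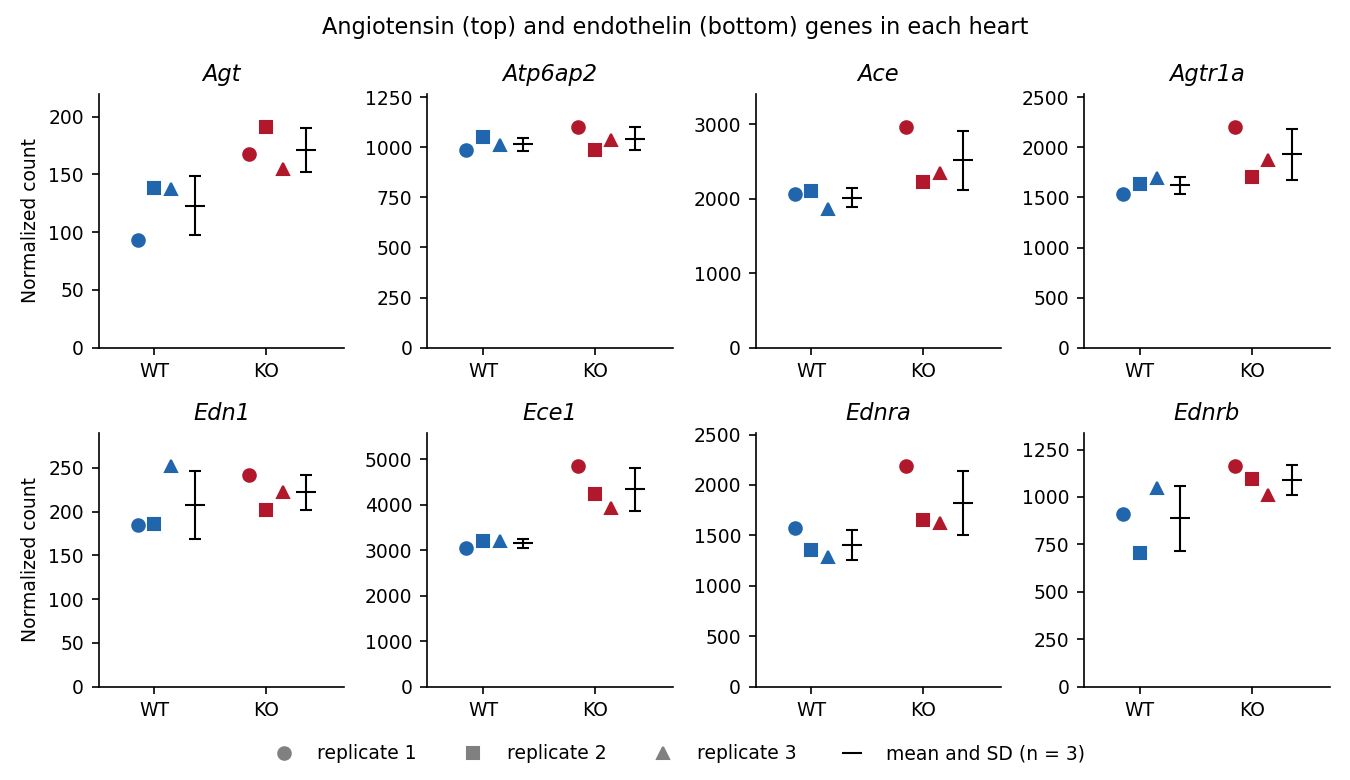
Normalized counts (y axis, from 0) of the 4 angiotensin genes (top) and the 4 endothelin genes (bottom) in each heart, WT in blue and NBCe1-B/C KO in red, with one symbol per replicate number and the mean with SD (n = 3) beside each group. The knockout points lie above all WT points for Agt, Ace, Agtr1a, Ece1 and Ednra, and replicate 1 is the highest knockout point in 7 of the 8 panels.

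The angiotensin genes are described first, from precursor to receptor. Agt lies on chromosome 8 (GRCm38, chr8:124556534-124569706, minus strand). Its normalized counts were 168, 191 and 154 in the 3 knockout libraries and 93.2, 138 and 137 in the WT libraries. Every knockout library lay above every WT library, and the lowest of the 6 values belonged to WT replicate 1. The means were 171 ± 18.7 and 123 ± 25.7 (SD, n = 3 each), with a log2 fold change of 0.49 (SE 0.19, 95% interval 0.07 to 0.91, limma adjusted p = 0.161). Agt is the only angiotensin gene whose highest knockout value came from the library labelled replicate 2, and without it the log2 fold change was 0.41 (limma adjusted p = 0.320). Leaving out each library in turn gave 0.31 to 0.59, the lowest without WT replicate 1. Adipose tissue also makes Agt, and the part of the uneven adipose markers in its values was not tested.

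Ace lies on chromosome 11 (chr11:105967945-105989964, plus strand). Its normalized counts were 2964, 2226 and 2343 in NBCe1-B/C KO and 2057, 2107 and 1864 in WT hearts. The groups were apart by 119 counts, between the library labelled replicate 2 of the knockout and WT replicate 2, and replicate 1 of the knockout stood well above the rest. The means were 2511 ± 397 and 2009 ± 128 (SD, n = 3 each), with a log2 fold change of 0.31 (SE 0.11, 95% interval 0.06 to 0.56, limma adjusted p = 0.139). DESeq2 gave an adjusted p of 0.0494, just inside its threshold, and 0.0638 without its filtering and outlier removal. Without replicate 1 the log2 fold change was 0.19, and without the library labelled replicate 2 it was 0.39 (limma adjusted p = 0.290 and 0.141). Ace shares 295 exon bases with the antisense gene Gm11651, and since the strand setting of the counting is not given in the sources used here, reads of the pair cannot be told apart there.

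Atp6ap2, on the X chromosome (chrX:12587801-12617049, plus strand), had the steadiest values of the 8 genes. The counts were 1103, 986 and 1039 in knockout and 985, 1049.9 and 1009 in WT libraries. The groups overlapped almost wholly. Its log2 fold change was 0.04 (SE 0.07, 95% interval -0.13 to 0.21, limma adjusted p = 0.801), an interval that leaves room for a small difference of either sign. It was 0.08 without the library labelled knockout replicate 2, and the sign was negative without replicate 1 and when libraries were rescaled to the same total.

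Agtr1a encodes the major angiotensin II receptor of the rodent heart and lies on chromosome 13 (chr13:30336441-30382867, plus strand). Its counts were 2207, 1707 and 1877 in NBCe1-B/C KO and 1532, 1629.9 and 1699 in WT hearts. The groups were apart by 7.39 counts, between the library labelled replicate 2 of the knockout and WT replicate 3. The means were 1930.5 ± 254 and 1620.3 ± 84.3 (SD, n = 3 each), with a log2 fold change of 0.25 (SE 0.10, 95% interval 0.02 to 0.47, limma adjusted p = 0.180). Without knockout replicate 1 it was 0.15 and without the library labelled replicate 2 it was 0.33, neither past the threshold. Agtr1a has a close paralog, Agtr1b, which is not analysed here, so reads shared by the pair may be missing or misassigned.

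Of the endothelin genes, the ligand precursor Edn1 differed least. Edn1 (chr13:42301476-42307990, plus strand) had counts of 242, 202 and 223 in knockout and 184, 186 and 253 in WT libraries. The highest value of all belonged to WT replicate 3 and the groups overlapped. The log2 fold change was 0.11 (SE 0.15, 95% interval -0.24 to 0.46, limma adjusted p = 0.715), and it ranged from 0.03 without WT replicate 1 to 0.26 without WT replicate 3, with 0.18 without the library labelled knockout replicate 2.

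Ece1 had the clearest difference of the 8 genes. It lies on chromosome 4 (chr4:137862237-137965229, plus strand), and its counts were 4860.0, 4236 and 3929.7 in NBCe1-B/C KO and 3047, 3212 and 3193 in WT hearts. All 3 knockout libraries stood well above the WT libraries, which lay close together. The means were 4342 ± 474 and 3151 ± 90.6 (SD, n = 3 each), that is 37.8% higher, with a log2 fold change of 0.46 (SE 0.08, 95% interval 0.27 to 0.65). Its limma adjusted p of 0.0815 was the lowest reached by any gene, a value it shared with others, and it ranked 61 by unadjusted p (0.00043). DESeq2 gave an adjusted p of 0.000268, which was 0.00246 with factors for exon length and GC content. edgeR's quasi-likelihood test gave 0.0805. The log2 fold change was 0.47 without the library labelled knockout replicate 2 and 0.37 without replicate 1, and 0.37 was the lowest value under any of the 20 alternative settings. No other gene of the 8 passed DESeq2 in all of its 3 settings.

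Ednra, the endothelin type A receptor, lies on chromosome 8 (chr8:77663031-77724464, minus strand). Its counts were 2191, 1657 and 1619 in knockout and 1577, 1359 and 1289 in WT libraries. The groups were apart by 41.9 counts, replicate 1 was the highest within each genotype, and the other knockout libraries lay close to WT replicate 1. The means were 1822 ± 320.2 and 1408 ± 150.1 (SD, n = 3 each), with a log2 fold change of 0.36 (SE 0.13, 95% interval 0.07 to 0.65, limma adjusted p = 0.138). DESeq2 gave an adjusted p of 0.0428, and 0.0553 without its filtering and outlier removal. Without knockout replicate 1 the log2 fold change was 0.22 and without the library labelled replicate 2 it was 0.42 (limma adjusted p = 0.304 and 0.166). Ednra shares 91 exon bases with the opposite-strand gene 4933431K23Rik, whose mean normalized count was 225, so part of its reads could be either gene's.

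Ednrb, the type B receptor, lies on chromosome 14 (chr14:103814625-103844402, minus strand). Its counts were 1165, 1095 and 1010.1 in NBCe1-B/C KO and 911, 705 and 1047 in WT hearts. WT replicate 3 lay inside the knockout range, while WT replicate 2 was the lowest by far. The log2 fold change was 0.31 (SE 0.14, 95% interval 0.001 to 0.62, limma adjusted p = 0.211) and its exact two-sided permutation p was 0.2. It was 0.31 without the library labelled knockout replicate 2, 0.16 without WT replicate 2 and 0.44 without WT replicate 3. It had the same log2 fold change to 2 decimals as Ace, with a wider spread among the WT hearts.

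**Figure D2:**
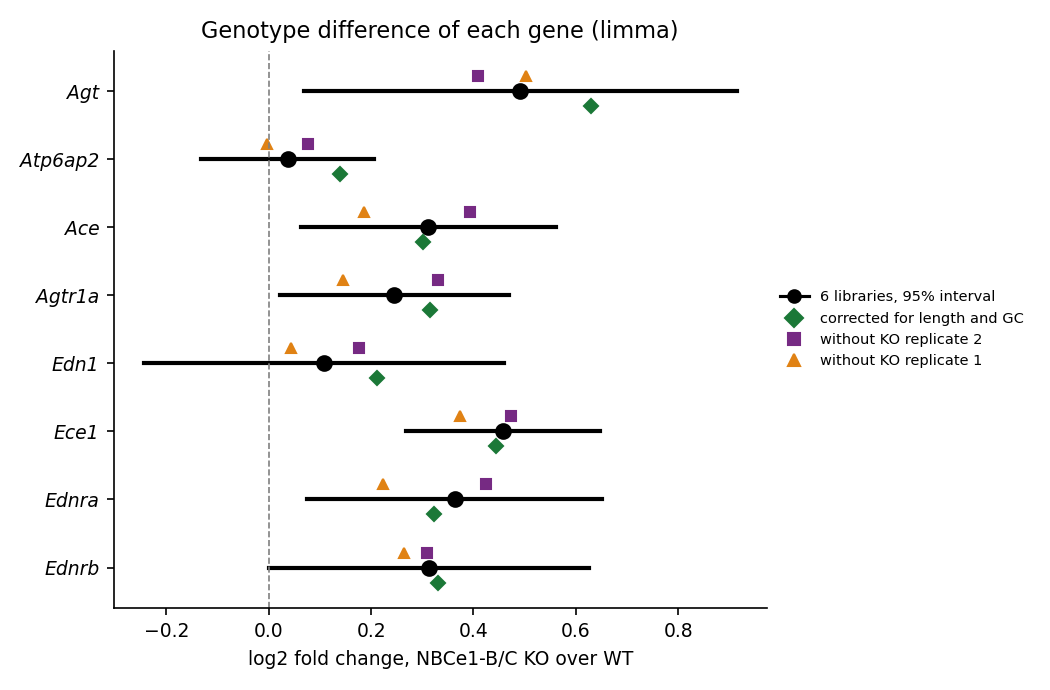
The log2 fold change of each gene, NBCe1-B/C KO over WT (x axis), with the limma estimate from 6 libraries and its 95% interval (black), the value after correction for exon length and GC content (green), and the values without knockout replicate 2 (purple) and replicate 1 (orange). Ece1 lies farthest from 0 relative to its interval, and the orange points of all genes but Agt, Ece1 included, lie nearer to 0 than the black ones.

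Across all genes, log2 fold changes were higher for longer genes (Spearman's rho 0.405 across genes, which share libraries and are not independent replicates), so each value was also read after the length and GC trend of every library had been removed. The log2 fold changes were then 0.63 for Agt, 0.30 for Ace, 0.14 for Atp6ap2, 0.32 for Agtr1a, 0.21 for Edn1, 0.44 for Ece1, 0.32 for Ednra and 0.33 for Ednrb. The groups of Agt, Ace, Agtr1a and Ece1 remained apart, 4 of 8 against 11.9% of all genes, and those of Ednra overlapped. The median of the 8 was 0.32 after the correction. None passed limma after it, and DESeq2 with the same factors passed Ece1, 1 of 8 against 2.92% of all genes with an adjusted p. Agt had no adjusted p in that DESeq2 setting, so it could not pass there.

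Read counts are summed over all start sites of a gene, and RefSeq (GRCm38.p6) lists 2 starts for Ace and 4 for Ece1, the converting enzymes. The 60 bases before each shown start are printed 5′ to 3′ on the gene's strand, because these data cannot say which start the additional Ace or Ece1 reads came from. Capitals mark the TATA box letters TATAAA, the Sp1 motif GGGCGG and the CCAAT box on either strand, found in 13.6%, 35.7% and 37.4% of all 32851 promoter windows of 300 bases. Promoter entries were found for 7 of the 8 genes, all but Agtr1a.
Agt, chr8:124569707-124569766, minus strand: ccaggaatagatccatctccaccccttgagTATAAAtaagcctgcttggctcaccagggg
Ace start 1, chr11:105967888-105967947, plus strand: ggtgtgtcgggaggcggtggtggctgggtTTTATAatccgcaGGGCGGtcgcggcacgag
Ace start 2, chr11:105975129-105975188, plus strand: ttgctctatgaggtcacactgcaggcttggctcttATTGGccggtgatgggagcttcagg
Ece1 start 1, chr4:137862177-137862236, plus strand: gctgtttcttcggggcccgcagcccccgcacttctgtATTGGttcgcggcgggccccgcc
Ece1 start 3, chr4:137913498-137913557, plus strand: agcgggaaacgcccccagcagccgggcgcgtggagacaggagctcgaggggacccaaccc
Agt held TATAAA and the first Ace start its reverse complement, at -30 and -31 from the start, and none of the 4 Ece1 windows held it. The Ace starts lie 7.24 kb apart and differ in their motifs, and the third Ece1 start lies 51.3 kb from the first. A match is only a run of letters and says nothing about binding.

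Levels of different genes were compared as normalized counts per kb of merged exon, a scale that allows for length. Averaged over the 6 hearts, Ece1 came first at 707 ± 136 (SD), followed by Agtr1a at 637 ± 86.1, Ace at 428 ± 72.0, Atp6ap2 at 393 ± 17.1, Ednra at 295 ± 58.2, Ednrb at 232 ± 38.2, Edn1 at 100.5 ± 13.5 and Agt at 77.7 ± 17.5. The converting enzyme and the receptor that head this order belong to different systems, and the ligand precursors of both systems came last. Ece1 lay above 85.5% of all genes on this scale and Agt above 40.6%. Neighbours in this order had overlapping ranges over the 6 libraries, except Ednrb and Edn1, which were apart. Within single libraries the order held in 6 of 6 for Agtr1a over Ace, for Atp6ap2 over Ednra and for Ednrb over Edn1. It held in 5 of 6 for Ece1 over Agtr1a, Ednra over Ednrb and Edn1 over Agt, and in 4 of 6 for Ace over Atp6ap2. In the WT hearts alone Ece1 and Agtr1a averaged 594 and 582, and Ace, at 380.1, came after Atp6ap2, at 388.

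**Figure D3:**
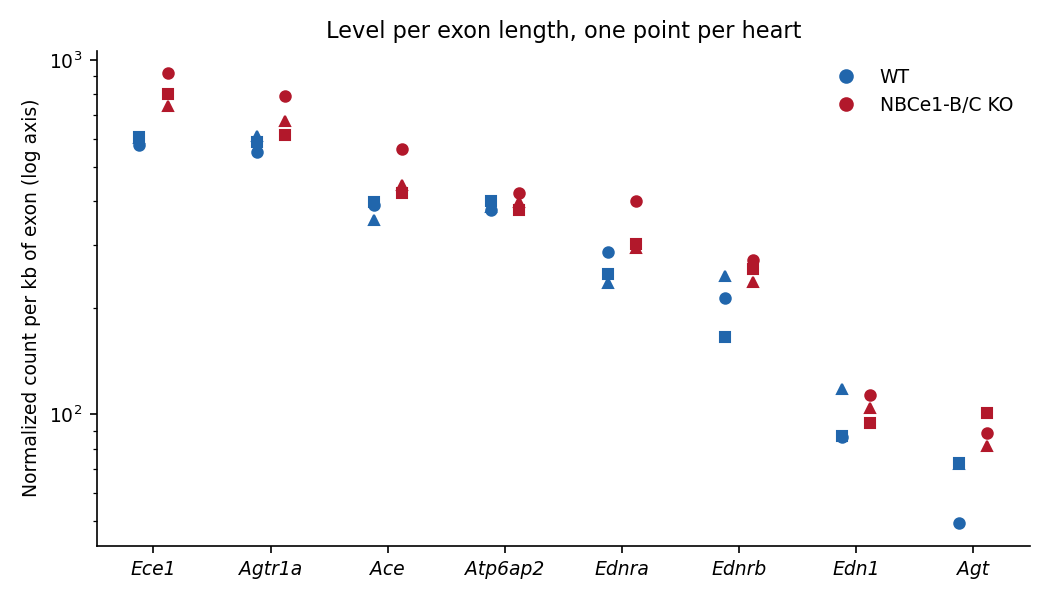
Level of each gene as normalized counts per kb of exon (log axis), one point per heart, WT in blue and NBCe1-B/C KO in red, ordered by the mean over 6 libraries from Ece1 (707) to Agt (77.7). Edn1 and Agt lie below all other genes in every heart.

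The related genes of both systems that were compared on this scale had lower means than all 8 genes. Ece2 came close to Agt in WT replicate 1, at 44.1 against 49.3. Ece2, a second converting enzyme, had a mean level of 37.5 normalized counts per kb, and the ratio of the Ece1 to the Ece2 level was 35.2, 22.1 and 21.8 in knockout and 13.03, 12.4 and 16.8 in WT hearts. Every knockout ratio lay above every WT ratio, with a mean of 26.4 ± 7.68 in knockout and 14.1 ± 2.36 in WT libraries (SD, n = 3 each). No test was run on this ratio, which was formed from values already seen. The ratio of Ednra to Ednrb was 1.47, 1.18 and 1.25 in knockout and 1.35, 1.502 and 0.959 in WT hearts, so the type A receptor was above the type B receptor in all libraries but WT replicate 3. Agtr2, the type 2 angiotensin receptor, and Edn3, another endothelin, were near the floor of the table, at mean levels of 4.44 and 3.48. Mas1, from the list of other angiotensin receptors, had a mean level of 17.9.

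Markers of the cells that hold these genes also differed in part between the groups. The summed endothelial markers (Pecam1, Cdh5, Kdr, Tek, Emcn and Tie1) were 40605 to 43704 in knockout and 37145 to 39502 in WT libraries. Of these genes 5 of 6 were higher, against 49.2% of all genes, and 2 had groups apart with the knockout higher, against 15.6%. The summed cardiomyocyte markers were also apart, with the knockout higher. Myh6, at a log2 fold change of 0.55, was the largest part of this sum in every library, so ratios to the sum depend most on Myh6. Tnnt2 and Tnni3 had log2 fold changes of -0.09 and -0.13. Of the 6 genes, 3 had groups apart with the knockout higher and 1, Tnni3, with it lower (15.6% and 14.6% of all genes). The sums of the pericyte and smooth muscle, fibroblast, macrophage, Schwann cell and melanocyte, and lymphocyte markers overlapped. Only 1 lung marker (Ager) was listed, at 9.30 to 22.7 counts, and Sftpc, Sftpb and Scgb1a1 are not analysed here. Per 1000 endothelial marker counts, Ece1 had 113, 96.9 and 96.8 counts in knockout and 82.0, 81.3 and 84.2 in WT hearts. Knockout and WT hearts were apart, by a ratio of means of 1.24, and per 1000 cardiomyocyte marker counts they were also apart, by 1.11. The same measure for Ace was 69.1, 50.9 and 57.7 against 55.4, 53.3 and 49.2, with the groups overlapping, as they did per 1000 cardiomyocyte marker counts at a ratio of means of 1.01. For Edn1 and Ednrb per 1000 endothelial marker counts, the groups overlapped at ratios of means of 0.964 and 1.10. For Agtr1a and Ednra per 1000 pericyte and smooth muscle counts, the groups overlapped at ratios of means of 0.991 and 1.08, and for Agtr1a per 1000 fibroblast marker counts they overlapped at 1.17. These ratios were chosen after the values had been seen, and the part of cell makeup in the genotype differences was not tested.

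The wider pathway was read from 7 lists that together name 80 genes, of which 75 were tested. None passed limma. Of the 75 genes, 52 had a higher and 23 a lower mean log2 value in the knockout, 21 had groups apart with the knockout higher and 4 with it lower (15.6% and 14.6% of all genes), and the median log2 fold change was 0.12. DESeq2 gave 65 of the 75 an adjusted p and passed 10 as higher and 3 as lower, against 8.22% and 5.03% of all genes with an adjusted p. With factors for length and GC content it passed 2, against 4.83% of all genes with an adjusted p. These were Rgs2, at 0.38, and Postn, at -0.55, and both were named after their values were seen. Without the library labelled knockout replicate 2, limma passed 1 of the 75, Nppb.

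Among 12 tested enzymes that make or degrade angiotensin peptides, 8 were higher and 4 lower, and the median was 0.16. Mme, the peptidase neprilysin, which degrades angiotensin I, endothelin and natriuretic peptides, had counts of 610.4, 547 and 625 in knockout and 259, 495 and 331 in WT hearts. The groups were apart, at a log2 fold change of 0.76 (SE 0.21, limma adjusted p = 0.092). Lnpep, which cleaves oxytocin and binds angiotensin IV, averaged 1659 ± 465 and 1128 ± 67.0 (SD, n = 3 each), at a log2 fold change of 0.52 (limma adjusted p = 0.120). Without the library labelled knockout replicate 2 they were at 0.82 and 0.56. Mme was at 0.55 without WT replicate 1, and Lnpep at 0.31 without knockout replicate 1. Renin itself (Ren1) and Ctsg are not analysed here.

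Of 5 other angiotensin receptors and receptor partners, 4 were higher, with a median of 0.25. Mtus1, whose product interacts with the type 2 receptor, averaged 8246 ± 427 and 6810.1 ± 520.4 (SD, n = 3 each), at a log2 fold change of 0.28 (limma adjusted p = 0.092). Nr3c2, the mineralocorticoid receptor on which aldosterone acts, averaged 1083 ± 72.3 and 911 ± 23.4, at 0.25 (limma adjusted p = 0.112). Both had groups apart, and without the library labelled knockout replicate 2 they were at 0.24 and 0.28. Once corrected for length and GC content, Mme, Lnpep and Mtus1 had overlapping groups and Nr3c2 did not. Of the other endothelin genes only Edn3 and Ece2 were tested, and their groups overlapped before the correction. Ece2 averaged 164 ± 27.4 in knockout and 219 ± 33.4 in WT hearts, a log2 fold change of -0.42 and thus of the opposite sign to Ece1 (limma adjusted p = 0.188). After the correction Ece2 was at -0.45 with its groups apart and the knockout lower (limma adjusted p = 0.256), and Edn3 still overlapped. Edn2 and Ecel1 are not analysed here, nor is Agtr1b.

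The Gq, phospholipase C and protein kinase C genes, which carry the signal of both receptor families, were higher in 14 of 16, with a median of 0.21. In 6 the groups were apart with the knockout higher, against 15.6% of all genes. Itpr1, a calcium release channel gated by inositol trisphosphate, had counts of 3017, 2505 and 2706 in knockout and 1844, 2043 and 2322 in WT hearts. All knockout values lay above the WT values, at a log2 fold change of 0.41 (SE 0.10, limma adjusted p = 0.0844). Itpr3, a related channel, averaged 652 ± 56.0 and 523 ± 47.6, at 0.32 (limma adjusted p = 0.121). These are long genes, with a median exon length of 7110 bases against 4120 for all genes tested. After the length and GC correction the median of the list was 0.12, Itpr1 was at 0.17, Itpr3 at 0.21, and the groups of both channels overlapped. Of the 6, Gnaq (0.15) and Gna13 (0.10) stayed apart and the rest overlapped, against 11.9% of all genes apart with the knockout higher. Without the library labelled knockout replicate 2, and uncorrected, the channels were at 0.47 and 0.39.

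The desensitization list held genes that end receptor signalling, and 7 of 10 were higher. Grk5, a kinase that marks active receptors, averaged 2456 ± 223 and 1940.1 ± 71.4, at a log2 fold change of 0.34 (limma adjusted p = 0.0834). Arrb2, which binds the marked receptors, averaged 548 ± 99.1 in knockout and 727 ± 65.8 in WT hearts, at -0.42 (limma adjusted p = 0.127). The groups of both were apart, in opposite directions, also after the length and GC correction. In the whole list 2 genes were apart with the knockout higher and 2 with it lower, against 15.6% and 14.6% of all genes. These include Arrb1, at 0.18, and Grk6, at -0.13, given outside the naming rule, whose groups overlapped after the correction. Without the library labelled knockout replicate 2, Grk5 was at 0.32 and Arrb2 at -0.52, and without replicate 1 Arrb2 was at -0.26. In the list of TRPC channels, calcineurin and NFAT, 8 of 13 were higher, with a median of 0.10. In 7 the groups were apart with the knockout higher, against 15.6% of all genes. Hdac4, a repressor of growth genes, averaged 955 ± 138 and 711 ± 17.1, at 0.41 (limma adjusted p = 0.0861). Trpc1, a cation channel, averaged 375 ± 26.7 and 300.05 ± 52.9, at 0.33 (limma adjusted p = 0.202). Without the library labelled knockout replicate 2 they were at 0.47 and 0.35, and Trpc1 was at 0.19 without WT replicate 2. This list has a median exon length of 8030 bases, and its median was 0.08 after the length and GC correction. Hdac4 was then at 0.20 with its groups apart, and Trpc1 at 0.23 with its groups overlapping. Of the 7, Ppp3r1 (0.18) and Nfatc1 (0.16) also stayed apart and the rest overlapped, against 11.9% of all genes apart with the knockout higher.

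Genes that angiotensin II is known to raise in the heart were split, with 10 of 17 higher and 7 lower and a median of 0.02. Nppb, which encodes the natriuretic peptide BNP, had counts of 1145, 2338 and 1010.1 in knockout and 4452, 3809 and 3545 in WT hearts. Every knockout library was below every WT library, and the library labelled replicate 2 was the nearest to WT. The log2 fold change was -1.49 (SE 0.27, limma adjusted p = 0.0815), and without that library it was -1.86 (adjusted p = 0.00276), so Nppb then passed limma as lower. DESeq2 on all libraries also passed Nppb as lower (adjusted p = 0.0135), but not with length and GC factors (adjusted p = 0.0624). Fn1, which encodes fibronectin, averaged 4663 ± 138 and 4069 ± 422, at 0.20 (limma adjusted p = 0.187). It was at 0.23 without the library labelled knockout replicate 2, at 0.12 without WT replicate 2, and at 0.04 with overlapping groups after the length and GC correction. Acta1, given outside the naming rule, had the largest rise of the list, at 0.71 with overlapping groups (limma adjusted p = 0.168). Further matrix and fibrosis genes of the list, also outside that rule, had overlapping groups before the correction and went both ways. Col1a1 was at 0.30, Lox at 0.12, Ccn2 at 0.03, Col3a1 at 0.02, Tgfb1 at 0.002, Spp1 at -0.14, Postn at -0.43 and Timp1 at -0.50. None passed limma, and DESeq2 passed Col1a1 as higher and Postn as lower (adjusted p = 0.0335 and 0.0194). After the length and GC correction Postn was at -0.53 with its groups apart and the knockout lower, and the others still overlapped. Nppa, the atrial natriuretic peptide gene, was lowest in replicate 1 of both genotypes, at 8086 and 10666 counts against 41543 to 61038 elsewhere. How much atrium each sample held was not tested.

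**Figure D4:**
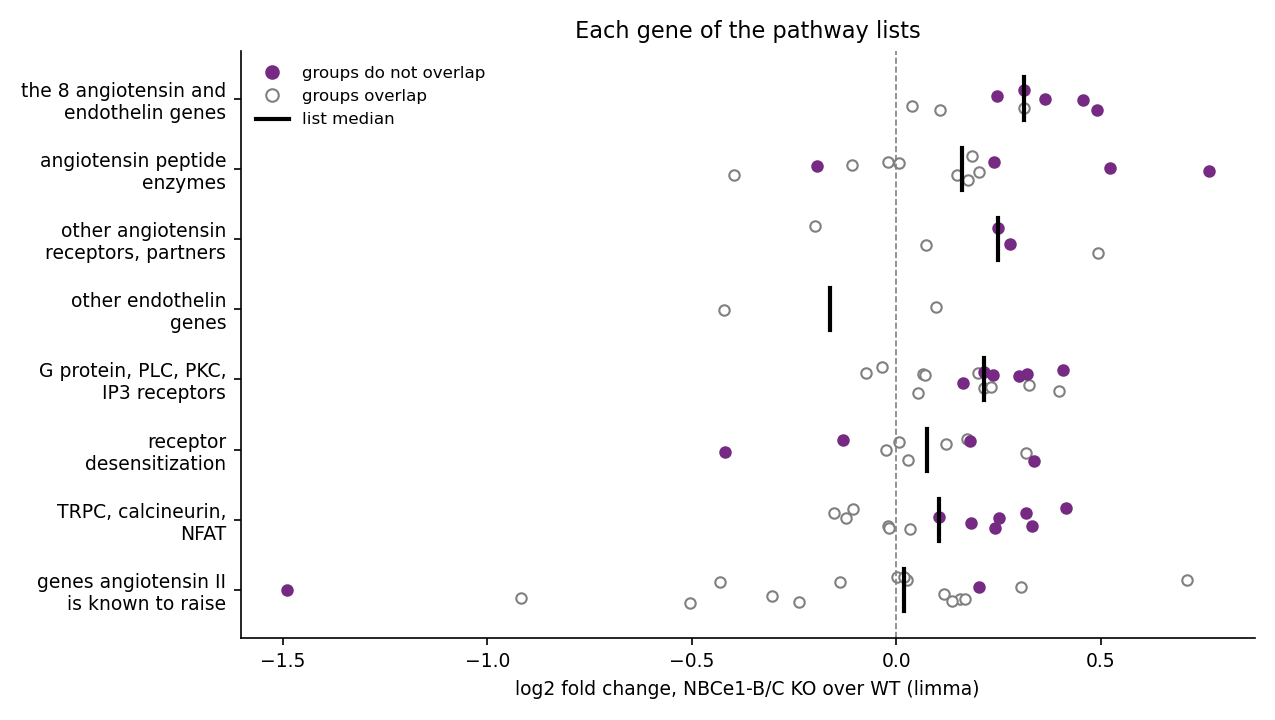
Log2 fold change, NBCe1-B/C KO over WT (x axis, limma), of every tested gene in the 8-gene set and the 7 pathway lists, with filled points where the 2 groups do not overlap and a bar at each list's median. The 8 genes have the median farthest above 0 (0.31), the Gq list lies at 0.21 and the genes angiotensin II is known to raise lie around 0.02, with Nppb at the far left.

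For each of the 8 genes, the gene with the closest pattern was the one whose log2 values, centred over the 6 libraries, had the smallest root mean square difference from its own. These were Mcc for Agt (0.0529), Fam234a for Ace (0.0249), Tmem168 for Atp6ap2 (0.00827), Kcnn2 for Agtr1a (0.0240), Sptbn5 for Edn1 (0.0363), Igf2r for Ece1 (0.0311), Ntn1 for Ednra (0.0162) and Trpc1 for Ednrb (0.0310). None of the 8 had another of the 8 as its closest gene. The number of genes within 0.05 was 0 for Agt, 2 each for Edn1 and Ednrb, 5 for Ednra, 16 for Ace, 32 for Ece1, 38 for Agtr1a and 300 for Atp6ap2.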

How the data were processed

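Hearts of 3 NBCe1-B/C KO and 3 WT mice were sequenced as paired reads on an Illumina HiSeq, per the labels. The submitters' processing notes name Trimmomatic 0.36, STAR 2.5.2b, featureCounts of Subread 1.5.2, DESeq2 and GRCm38, with no settings. The authors deposited a signal per gene, namely read counts divided by a size factor per library. All values (100%) in each library were whole multiples of 1 read within 0.01, so reads were recovered, and they were used in count tests only as alternatives. A pseudocount of 1 was added, log2 was taken, and genotypes were compared by limma 3.58.1 in R 4.3.3 (trended variance, two-sided). Genes with a mean of at least 10 were tested (16016), adjusted after Benjamini and Hochberg and called under 0.05. Log2 fold changes are on that scale, which understates those of low genes. Exact permutation tests were run per gene. Alternatives used edgeR 4.0.16, DESeq2 1.42.0, other pseudocounts, filters and scalings, a spline correction (5 df) for exon length and GC content, a replicate block, and each library left out. Exon lengths came from GENCODE M21 for 15980 of 16018 gene IDs. Nothing in the sources used here says whether libraries were prepared together. Each library is a different animal. Simulated counts were also put through limma, with and without the length and GC correction, edgeR and DESeq2 at its default settings. The permutation test, the replicate block and the other DESeq2 settings were not run on simulated counts. The 8 genes and the lists were chosen with earlier results of these data known. Pathway genes are named if past the threshold or, of those with groups apart, the 2 with the largest absolute log2 fold change per list, together with every list gene not analysed here. Genes named outside that rule are given as values.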

Additional observations from a re-analysis of the deposited data

How the results depend on the processing

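Of the 20 alternative settings, none changed the direction of Agt, Ace, Agtr1a, Edn1, Ece1, Ednra or Ednrb. Atp6ap2 was at -0.035 when rescaled to the same total, which moved the median of all genes to -0.08, and ranged from -0.0037 (without NBCe1-B/C KO replicate 1) to 0.077 with 1 library left out. The count of all genes called was 0 in limma and edgeR, which gave 3764 and 3837 genes an unadjusted p under 0.05, and 1587 in DESeq2, 1405 without its independent filtering and outlier removal, and 519 with length and GC factors. Of the 8 genes, these DESeq2 settings called 3, 1 and 1, and of the pathway genes 13, 11 and 2. The cause of the gap between limma and DESeq2 was not tested. With 1 library left out in turn, limma called 0 to 3 of all genes, 0 of the 8 genes and 0 to 1 of the pathway genes, the highest counts without the library labelled NBCe1-B/C KO replicate 2. The fit with a replicate block called 0 genes, also with the length and GC correction. Same-numbered libraries had correlations of 0.227, 0.072 and -0.029 of their deviations from the group means. The libraries numbered 1 correlated best with each other, at the highest value of any pair, and those numbered 2 and 3 did not. Numbers were used as names only, and whether same-numbered libraries share a batch was not tested. Agt, the lowest of the 8 genes, had a mean of 123 normalized counts in WT hearts, so all 8 lay well above the filter. With 3 animals per group, small differences such as those of Atp6ap2 and Edn1 are bounded only by their intervals.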
